A study of Mus musculus with 3 samples.

Results

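The activity-induced genes Fos, Fosb, Junb, Egr1, Egr3, Arc, Npas4, Homer1, Bdnf and Nptx2 were examined in single nuclei of the mouse olfactory bulb (OB). They were chosen by name, 10 genes of the 31055 in the count tables, and were described across the 22 clusters of 31703 nuclei in the deposited table and its 10 numbered subclusters of projection neuron clusters. The nuclei came from 3 adult male C57Bl/6 mice aged 7 weeks. In each mouse, rAAVretro-CAG-H2B-GFP, a virus that axon terminals take up and carry back to the cell body, had been placed at several sites of the piriform cortex (PCx) and the anterior olfactory nucleus (AON), so that cells projecting there came to hold a fluorescent nucleus. Tissue was taken after a terminal dose of ketamine and xylazine and a flush of the vessels with cold PBS. GFP-positive, DRAQ5-stained nuclei of the bulb on the injected side were then sorted and sequenced with 10x 3' v3 chemistry. Each mouse gave 1 library, all mice were treated alike, and no odour stimulus is described, so that nothing here compares conditions and the mice serve as replicates for comparing types of nuclei.

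Immediate early genes are transcribed within minutes of strong synaptic input or depolarisation, through transcription factors such as CREB and SRF that are already present in the cell. Fos, Fosb and Junb encode subunits of the AP-1 transcription factor, Egr1 and Egr3 zinc finger transcription factors, and Npas4 a basic helix-loop-helix PAS factor that responds closely to calcium entry. Arc, Homer1, Bdnf and Nptx2 act at the synapse: Arc in the removal of AMPA receptors from the membrane, Homer1 as a scaffold for metabotropic glutamate receptors, Bdnf as a secreted neurotrophin and Nptx2 as a secreted pentraxin that gathers AMPA receptors. In the bulb, granule cells and periglomerular cells are inhibitory interneurons whose immediate early genes respond to odour, and mitral and tufted cells are the glutamatergic neurons that send axons to the cortex.

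Promoter windows are shown for 6 members, because these genes are known for being induced together. From RefSeq (GRCm38.p6), 13 windows of 300 bases were searched for 6 of the 10 members. Each ran from 250 bases before the transcription start to 50 after it. Egr1, Egr3, Arc and Nptx2 were not searched, so that the counts below say nothing of them. The 6 windows below are those that hold TGACG, the first part of the cAMP response element TGACGTCA, on either strand. Capitals mark TGACG or its reverse complement and, in Fosb, also a match to the EGR motif GCGNGGGCG.
Fos, chr12:85473640-85473939, plus strand: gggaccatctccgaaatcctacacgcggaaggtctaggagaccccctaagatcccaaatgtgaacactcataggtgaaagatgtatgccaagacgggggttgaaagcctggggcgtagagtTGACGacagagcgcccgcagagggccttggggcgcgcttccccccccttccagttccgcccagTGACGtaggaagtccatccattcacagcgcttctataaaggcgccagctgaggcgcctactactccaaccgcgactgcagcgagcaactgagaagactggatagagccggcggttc
Fosb, chr7:19309996-19310295, minus strand: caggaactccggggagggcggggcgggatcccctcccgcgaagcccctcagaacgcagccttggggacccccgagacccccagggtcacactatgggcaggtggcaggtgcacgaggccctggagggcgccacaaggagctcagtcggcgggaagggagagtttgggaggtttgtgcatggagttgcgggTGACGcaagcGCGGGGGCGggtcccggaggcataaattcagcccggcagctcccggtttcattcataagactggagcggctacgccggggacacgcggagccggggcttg
Junb, chr8:84978699-84978998, minus strand: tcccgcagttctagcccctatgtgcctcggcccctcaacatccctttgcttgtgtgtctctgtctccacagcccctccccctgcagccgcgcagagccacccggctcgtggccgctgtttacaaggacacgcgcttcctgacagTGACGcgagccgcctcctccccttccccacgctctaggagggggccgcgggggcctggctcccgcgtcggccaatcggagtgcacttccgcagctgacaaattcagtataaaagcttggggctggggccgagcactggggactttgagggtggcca
Npas4, chr19:4989922-4990221, minus strand: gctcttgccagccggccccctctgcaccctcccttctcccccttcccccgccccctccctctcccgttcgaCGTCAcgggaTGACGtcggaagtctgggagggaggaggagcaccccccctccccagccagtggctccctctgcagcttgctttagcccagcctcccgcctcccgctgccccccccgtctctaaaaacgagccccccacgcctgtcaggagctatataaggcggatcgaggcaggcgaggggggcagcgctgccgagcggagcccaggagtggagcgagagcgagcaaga
Homer1, chr13:93303507-93303806, plus strand: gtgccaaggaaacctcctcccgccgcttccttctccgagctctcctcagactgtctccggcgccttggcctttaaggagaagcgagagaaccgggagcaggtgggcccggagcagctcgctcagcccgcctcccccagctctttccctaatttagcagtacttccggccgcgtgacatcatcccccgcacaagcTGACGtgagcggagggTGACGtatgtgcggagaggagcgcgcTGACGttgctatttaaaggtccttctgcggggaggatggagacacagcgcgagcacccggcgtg
Bdnf, chr2:109692186-109692485, plus strand: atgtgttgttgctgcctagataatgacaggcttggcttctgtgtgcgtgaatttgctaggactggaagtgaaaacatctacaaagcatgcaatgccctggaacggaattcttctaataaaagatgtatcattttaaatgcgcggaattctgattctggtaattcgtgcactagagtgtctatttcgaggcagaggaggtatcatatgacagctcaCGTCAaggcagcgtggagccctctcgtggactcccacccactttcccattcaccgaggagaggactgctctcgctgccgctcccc
TGACG stood in 6 of the 13 windows, against 20.8% of the 32851 windows of all genes. Fos had it at -129 and -66 from the start, Homer1 at -56, -40 and -14, and Npas4 at -179 and -169. The whole element TGACGTCA, which contains TGACG, was in 0 of the 13 windows and in 1.79% of all windows. The AP-1 motif TGANTCA stood in 1 of the 13 windows, in a further Bdnf window, against 7.81% of all windows. The EGR motif stood in 1, that of Fosb at -50, against 5.55%. The CArG box, the motif of the serum response factor, was in 0 of the 13 windows and in 1.63% of all windows. Both strands were searched. A match describes letters in a window, and no match says only that these letters are not there.

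Mice 1, 2 and 3 gave 5845, 21105 and 4753 retained nuclei, with 58526996, 213891496 and 62929479 unique molecular identifiers (UMIs, counts of single captured RNA molecules) and a median of 7940, 8420 and 10568 UMIs per nucleus. The libraries shared few barcodes, namely 39 in mice 1 and 2, 8 in mice 1 and 3 and 35 in mice 2 and 3. The deposited clusters carry numbers only, so that they were named here from marker genes, and a difference from the names of the study may come from this. Of the clusters, 10 were inhibitory-neuron-like with 21236 nuclei, 5 were projection-neuron-like, and the others were astrocyte-like, olfactory-ensheathing-glia-like, oligodendrocyte-like, vascular-like, OPC-like and microglia-like, with cluster 21 left unnamed. Within the projection neurons, 7 subclusters with 6346 nuclei carried markers of the types M1, M2 and M3 (mitral), T1 (tufted) and ET1, ET2 and ET4 (external tufted). Subclusters 2 and 8 stayed unnamed, and subcluster 9 was periglomerular-like; these were not counted as projection neurons. M1-like nuclei of mouse 1 numbered 14, which makes its values the least certain.

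Levels are UMIs per 1000000 UMIs (CPM) of the nuclei of a group summed within a mouse, and each gene is compared with itself across groups, not with other genes. Over all nuclei, mouse 1 had the lowest level of 9 of the 10 members. Fos stood at 15.0, 36.7 and 33.7 CPM in mice 1, 2 and 3, Egr1 at 59.3, 104.0 and 71.3 and Homer1 at 101.5, 140.7 and 137.9. Nptx2 was the exception, at 21.7, 14.9 and 24.3 CPM with mouse 2 lowest. Of 21 clusters compared, mouse 1 was lowest in 16 for Fos, 15 for Npas4, 14 each for Egr1 and Egr3, 13 each for Arc and Homer1, 12 for Junb, 10 each for Fosb and Bdnf and 8 for Nptx2. Since each mouse is 1 library, animal, injection and preparation cannot be told apart.

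The first question was in which classes of nuclei the genes were found. Of the 10 members, 9 were lower in projection-neuron-like than in inhibitory-neuron-like nuclei and 1, Nptx2, was higher. In all 10 the 3 mice of one class did not overlap with those of the other. The share of all genes without such overlap was not computed, so that this count has no background. Each of the 10 differences passed edgeR's quasi-likelihood test with Benjamini-Hochberg adjustment over 18088 genes and a fold limit of 2 in either direction. Over all genes tested, 13.9% were called lower and 15.4% higher in projection neurons. The median log2 fold change of the members was -2.53, and that of all genes 0.01. Single clusters of the classes did overlap: the mean level of Fos was 20.2 CPM in inhibitory cluster 1 and 25.5 CPM in projection cluster 14, and that of Bdnf was 3.48 CPM in inhibitory cluster 15 and 4.03 CPM in projection cluster 4. All 10 members kept their call under each of the 10 alternatives run, with a highest adjusted p of 0.0252 for edgeR or DESeq2.

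Among the AP-1 genes, Fos (GRCm38, chr12, 85473890 to 85477273, plus strand) stood at 23.5, 48.8 and 56.9 CPM in the inhibitory nuclei of mice 1, 2 and 3 and at 5.11, 14.0 and 13.1 CPM in the projection nuclei. Its log2 fold change was -1.92 ± 0.43 (SE, n = 3 mice, edgeR adjusted p = 0.00589). Per 100 nuclei this was a mean of 39.8 Fos UMIs in inhibitory and 18.3 in projection nuclei. Fosb (chr7, 19302696 to 19310051, minus strand), a close relative of Fos, was at 4.77, 9.42 and 11.8 CPM in inhibitory and 0.387, 1.08 and 0.669 CPM in projection nuclei, with a log2 fold change of -3.43 ± 0.44 (edgeR adjusted p = 0.000346). Junb (chr8, 84974484 to 84978718, minus strand), their Jun-family partner, had 90.5, 106 and 112 CPM against 12.1, 20.8 and 11.4 CPM, and a log2 fold change of -2.71 ± 0.24 (edgeR adjusted p = 4.52e-05). The annotation places Prdx2 on the other strand over part of Junb. Within the inhibitory class, mouse 1 was lowest for each of these genes.

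The zinc finger gene Egr1 (GRCm38, chr18, 34859823 to 34864984, plus strand) stood at 106, 148 and 140 CPM in inhibitory and at 5.37, 21.4 and 11.1 CPM in projection nuclei. Its log2 fold change was -3.27 ± 0.44 (SE, n = 3, edgeR adjusted p = 0.00045), and the means per 100 nuclei were 119 and 20.8 UMIs. Egr3 (chr14, 70077203 to 70082614, plus strand), which EGR and other factors induce, was at 17.1, 22.9 and 28.0 CPM against 0.731, 2.26 and 0.985 CPM, a log2 fold change of -3.90 ± 0.38 (edgeR adjusted p = 7.65e-05) and the lowest of the 10. Npas4 (chr19, 4984355 to 4990316, minus strand) differed less, with 14.9, 21.7 and 22.8 CPM against 3.40, 5.95 and 4.86 CPM and a log2 fold change of -1.97 ± 0.25 (edgeR adjusted p = 0.000297).

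Of the genes acting at the synapse, Arc (chr15, 74669083 to 74672570, minus strand) stood at 28.7, 39.5 and 40.3 CPM in inhibitory and at 0.602, 4.08 and 2.04 CPM in projection nuclei. Its log2 fold change was -3.82 ± 0.48 (SE, n = 3, edgeR adjusted p = 0.000298). Homer1 (chr13, 93299635 to 93405129, plus strand) was at 145, 184 and 228 CPM against 54.3, 61.4 and 60.0 CPM, with a log2 fold change of -1.59 ± 0.17 (edgeR adjusted p = 0.000123), the smallest difference of the 9. Its means per 100 nuclei were 169 and 99.2 UMIs. Bdnf (chr2, 109674700 to 109727007, plus strand) was at 28.1, 30.8 and 31.1 CPM against 3.91, 7.69 and 4.72 CPM, with a log2 fold change of -2.36 ± 0.23 (edgeR adjusted p = 8.28e-05). An antisense gene, Gm45346, overlaps Bdnf and has its own row in the counts. Nptx2 (chr5, 144545902 to 144557478, plus strand) ran the other way, at 11.2, 9.85 and 10.5 CPM in inhibitory and 36.9, 26.9 and 39.2 CPM in projection nuclei. Its log2 fold change was 1.78 ± 0.15 (edgeR adjusted p = 3.57e-05), and its means per 100 nuclei were 9.4 and 59.0 UMIs.

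**Figure D1:**
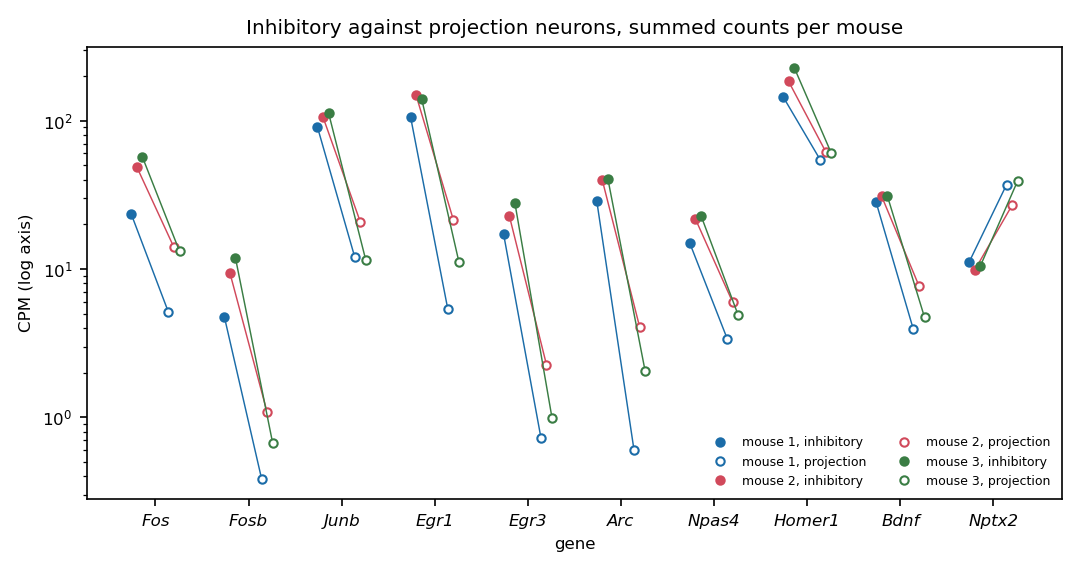
Levels of the 10 members (CPM, logarithmic axis) in inhibitory-neuron-like (filled) and projection-neuron-like (open) nuclei, 1 point per mouse, joined by a line within each mouse. The inhibitory points lie above the projection points for 9 members and below them for Nptx2, with no overlap.

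Markers of inhibitory neurons were also counted in other nuclei. The summed level of 9 markers of inhibitory neurons (Gad1, Gad2, Slc32a1, Meis2, Dlx1, Dlx2, Dlx6os1, Synpr and Pcp4) was 7281, 7182 and 6347 CPM in inhibitory nuclei and 242, 631 and 163 CPM in projection nuclei. In the 6 glial, vascular and microglial clusters it averaged between 1436 and 2264 CPM. Mouse 2 had the highest sum in projection nuclei, and it also had the highest projection level of Fos, Fosb, Junb, Egr1, Egr3, Arc, Npas4, Homer1 and Bdnf. The part of inhibitory-neuron RNA in these levels was not tested. As a description, the level that a gene would have in the proportion of inhibitory nuclei was computed for each type and mouse, as its marker UMIs times the ratio of gene to marker in inhibitory nuclei of that mouse, and the observed UMIs were divided by it. A ratio of 1 means that a gene was present in the same proportion to the markers as in inhibitory nuclei.

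The members differed in how many of these ratios had an interval above 1. For Nptx2 and Homer1 the exact Poisson 95% interval of the ratio lay above 1 in all 3 mice in each of the 7 types, and for Npas4 in 6 of them. Fos and Junb were above 1 in 5 types, Egr1 in 2 (M2 and M3) and Bdnf in 1 (ET2). Arc, Egr3 and Fosb were above 1 in all mice in 0 types, and in no mouse at all in 4, 5 and 6 types. How many intervals lie above 1 depends also on the number of UMIs. Fosb had only 9, 56 and 19 UMIs in the projection nuclei of mice 1, 2 and 3, and Egr3 17, 117 and 28. An interval that reaches 1 therefore does not show that the ratio of such a gene was low. These intervals, like the others given here, cover counting error only. The largest ratios were those of Nptx2, which reached 170, 62.9 and 246 in T1. Fos in ET4 had ratios of 21.7, 6.61 and 21.7, Homer1 in ET4 16.0, 5.71 and 11.8, and Bdnf in ET2 23.3, 10.7 and 48.6. In T1, by contrast, Egr1 had ratios of 1.27, 1.78 and 2.83 and Arc of 0.645, 1.07 and 2.15. The interval of Egr1 lay above 1 in mice 2 and 3 (1.57 to 2.01 and 2.25 to 3.51) and that of Arc in mouse 3 (1.28 to 3.40). In astrocyte-like nuclei the mean ratio was 1.19 for Egr1 and 0.85 for Arc.

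**Figure D2:**
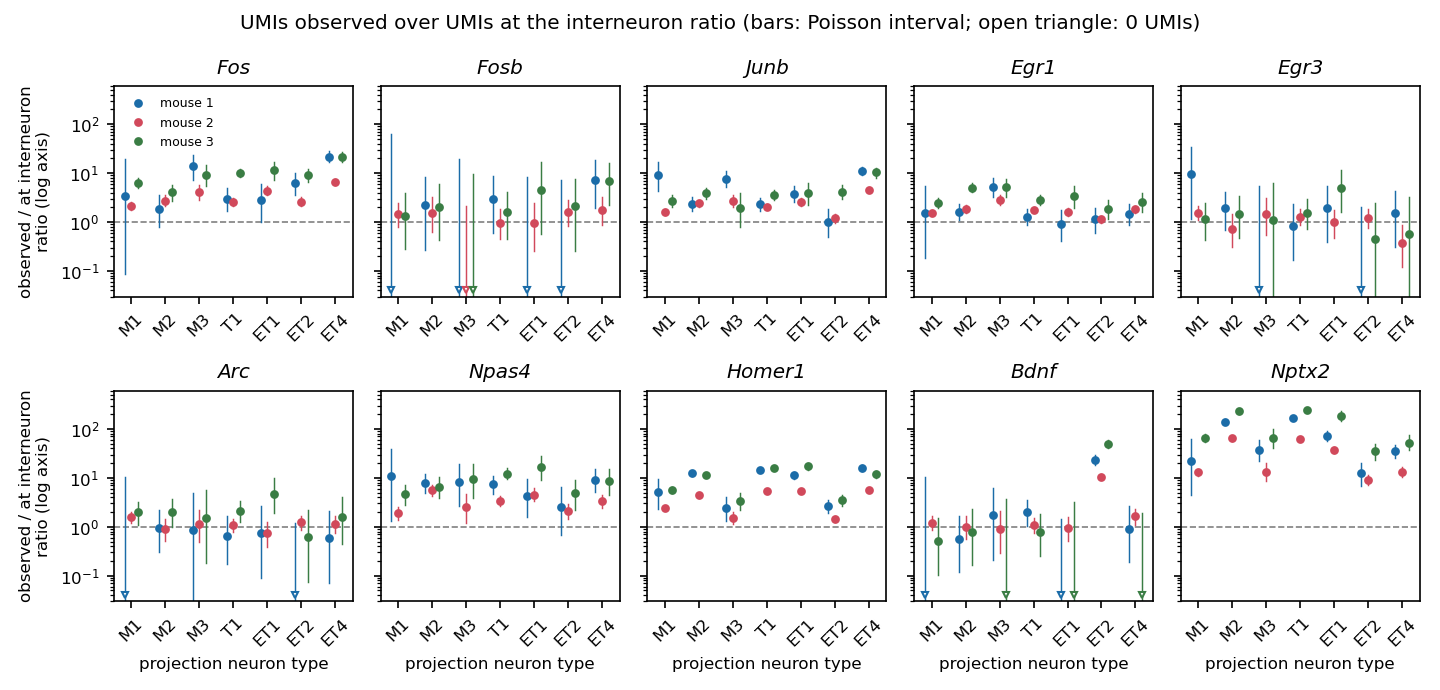
Observed UMIs over those that inhibitory-neuron RNA would give (ratio, logarithmic axis), by gene and projection neuron type, 1 point per mouse with its exact Poisson 95% interval; open triangles stand for 0 UMIs and the dashed line for a ratio of 1. Nptx2 and Homer1 lie above the line in all 7 types, and Arc, Egr3 and Fosb scatter around it.

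The second question was whether types of projection neuron differed from each other. The nuclei of each type were added up within each mouse, for 21 libraries. Of the members, 9 passed the filter on low counts and Fosb did not. A difference among the 7 types was found for 6 of the 9 by edgeR's quasi-likelihood F test with Benjamini-Hochberg adjustment, namely Fos, Junb, Egr1, Homer1, Bdnf and Nptx2, while 64.8% of all 14696 genes tested passed it, so that the share of members is near that of all genes. A fit that blocked by mouse passed 7. The types had been separated on the same counts, and a gene that took part in this could differ for that reason. Each type was then set against the mean of the other 6. Of 63 pairs of member and type, 5 were called higher and 5 lower, or 7.94% each, against 6.89% higher and 5.28% lower over all genes and types. Without mouse 1 the called pairs numbered 6, and with all subclusters in the fit 21.

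Fos was highest in ET4, M3 and ET2. In mice 1, 2 and 3 it stood at 23.9, 33.0 and 53.1 CPM in ET4, at 23.6, 31.8 and 27.4 in M3 and at 18.5, 26.3 and 29.6 in ET2. The remaining types were lower, at 6.19, 12.8 and 13.5 in M1, 2.69, 15.6 and 11.7 in ET1, 1.75, 7.37 and 11.3 in T1 and 0.953, 6.72 and 3.75 in M2. In the order of means, the gap between ET2 and M1 was the one step at which neighbouring types did not overlap. ET4 was called higher than the mean of the other types, with a log2 fold change of 1.46 ± 0.34 (SE, n = 3, edgeR adjusted p = 0.00119), and M2 lower, with -1.98. The call for T1 (-1.03) was lost without mouse 1, at -0.84, and without mouse 2, at -0.86.

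Junb followed a like order. ET4 had 46.3, 49.1 and 49.6 CPM, and its log2 fold change was 1.46 ± 0.27 (SE, n = 3, edgeR adjusted p = 7.32e-05). M3 had 50.8, 45.9 and 11.3 CPM and M1 61.9, 21.1 and 11.4 CPM, so that their mice spread widely. T1, at 5.26, 12.8 and 7.98 CPM, and M2, at 4.77, 12.8 and 7.10 CPM, were called lower, with log2 fold changes of -1.13 and -1.22; both calls were lost without mouse 1, at -0.92 and -0.97. Fosb was near the counting limit throughout, with 1.59, 1.71 and 3.49 CPM in ET4. In M3 it had 0 UMIs in each mouse. Over the group this allows a level of up to 1.30 CPM (3 counts), and per mouse the exact 95% upper limits of the share of nuclei with a captured UMI were 5.21%, 2.10% and 4.35%, of 69, 174 and 83 nuclei.

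ET4 and M3 also stood apart in measures of RNA quality. The summed level of 13 mitochondrial transcripts was 1519, 1822 and 1487 CPM in ET4, the highest of the 7 types, and 677, 1323 and 748 CPM in M3, while the means of the other types ran from 314 to 730 CPM. A list of 15 heat shock and handling genes summed to 1784, 1449 and 1440 CPM in ET4 and 1549, 1315 and 980 CPM in M3, with means from 342 to 821 CPM elsewhere. M3 and ET4 were the shallowest types, with a median of 5915 and 10419 UMIs per nucleus against 11893 to 20781 in the others. The part of these measures in the higher Fos and Junb, in the higher Egr1 of M3 and in the higher Homer1 of ET4 was not tested.

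Egr1 was highest in M3, at 39.9, 67.1 and 37.1 CPM, above every mouse of the next type, ET2, at 15.0, 34.8 and 14.8 CPM. M3 differed from the mean of the others by a log2 fold change of 1.58 ± 0.45 (SE, n = 3, edgeR adjusted p = 0.012), and 1.66 with the mouse as a block. Without mouse 3 it was also 1.58, but the adjusted p was 0.0569, and that of the F test among types moved from 0.0148 to 0.0619. The other types were at 3.39, 15.4 and 7.88 CPM in T1, 3.81, 13.9 and 11.5 in M2, 4.04, 17.3 and 8.26 in ET1, 7.18, 27.4 and 15.4 in ET4 and 12.4, 28.5 and 12.9 in M1. In each of the 7 types mouse 2 was highest, as it was for the markers of inhibitory neurons, whose part in these levels was not tested. Egr3 (F test adjusted p = 0.0606), Arc (0.0780) and Npas4 (0.266) did not pass edgeR's test between types, and Arc passed it when blocked by mouse (0.0225). Over the 7 types and the mice, Arc ran from 0 to 10.1 CPM, Egr3 from 0 to 12.4 CPM and Npas4 from 2.41 to 12.4 CPM. The 12.4 CPM of Egr3, in M1 of mouse 1, rest on 2 UMIs. Subclusters outside these types had the highest mean of some members. Arc (12.7 CPM) and Egr3 (6.93 CPM) were highest in unnamed subcluster 2 and Npas4 (14.9 CPM) in unnamed subcluster 8. Fosb was highest in subcluster 9 (3.08 CPM, from 14 UMIs of mouse 2). For each other member, 1 of the 7 types had the highest mean.

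Homer1 was highest in ET4, at 108, 107 and 115 CPM, with no overlap to ET1 at 67.7, 72.7 and 69.5 CPM. T1 followed at 52.0, 58.1 and 71.9 CPM, M1 at 55.7, 56.3 and 48.2 and ET2 at 47.4, 55.7 and 45.2. The lowest were M2, at 39.6, 40.8 and 42.6 CPM, and M3, at 25.4, 44.1 and 40.3 CPM. Its F test gave an adjusted p of 5.39e-08 with edgeR. The log2 fold change of ET4 was 0.99, just below the limit of 1, so that no type was called for it.

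Bdnf was high in 1 of the 7 types. ET2 had 82.2, 67.9 and 86.8 CPM, and no mouse of another type exceeded 5.13 CPM. Outside the 7 types, unnamed subcluster 2 had 8.60, 15.2 and 15.5 CPM in mice 1, 2 and 3. The log2 fold change of ET2 was 5.35 ± 0.34 (SE, n = 3, edgeR adjusted p = 2.45e-12), and it lay between 4.84 and 7.42 when 1 mouse was left out. After thinning each nucleus to 2000 UMIs, Bdnf was detected in 17.4%, 13.0% and 9.20% of ET2 nuclei in mice 1, 2 and 3, against 0.538%, 2.93% and 2.09% of astrocyte-like nuclei. Without thinning the shares in ET2 were 52.2%, 40.3% and 49.4%, at a median of 11893 UMIs, and in astrocyte-like nuclei 3.72%, 8.19% and 5.76%, at a median of 5211 UMIs. M2 was called lower than the mean of the others, at -2.06. The call was lost without mouse 1 (-1.82, edgeR adjusted p = 0.109) and without mouse 2 (-1.33, edgeR adjusted p = 0.995), and M2 held under 2 CPM in every mouse. The mean of the others includes ET2. ET1 had a lower mean level than M2, at 0.713 against 0.778 CPM, and was not called (log2 fold change -1.54).

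Nptx2 had its highest level in T1, at 48.0, 36.4 and 51.5 CPM. T1 was called higher, with a log2 fold change of 1.02 ± 0.14 (SE, n = 3, edgeR adjusted p = 1.78e-06), close to the limit of 1, and it lost its call with the mouse as a block (0.99), without mouse 1 (0.99) and without mouse 2 (0.96). M2 stood at 34.9, 31.9 and 39.4 CPM, ET1 at 33.2, 27.0 and 34.5 and M3 at 30.9, 21.2 and 35.4. The lowest were M1 at 18.6, 15.8 and 25.5, ET2 at 17.4, 18.6 and 21.2 and ET4 at 18.3, 13.2 and 23.8 CPM, and in the order of means no neighbouring types were free of overlap. By mean level, ET4 was thus highest for Fos, Junb and Homer1 and lowest for Nptx2. Single mice departed from this: ET2 was below ET4 for Nptx2 in mice 1 and 3. For Junb in mouse 1, M1 (61.9 CPM) and M3 (50.8 CPM) were above ET4 (46.3 CPM).

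**Figure D3:**
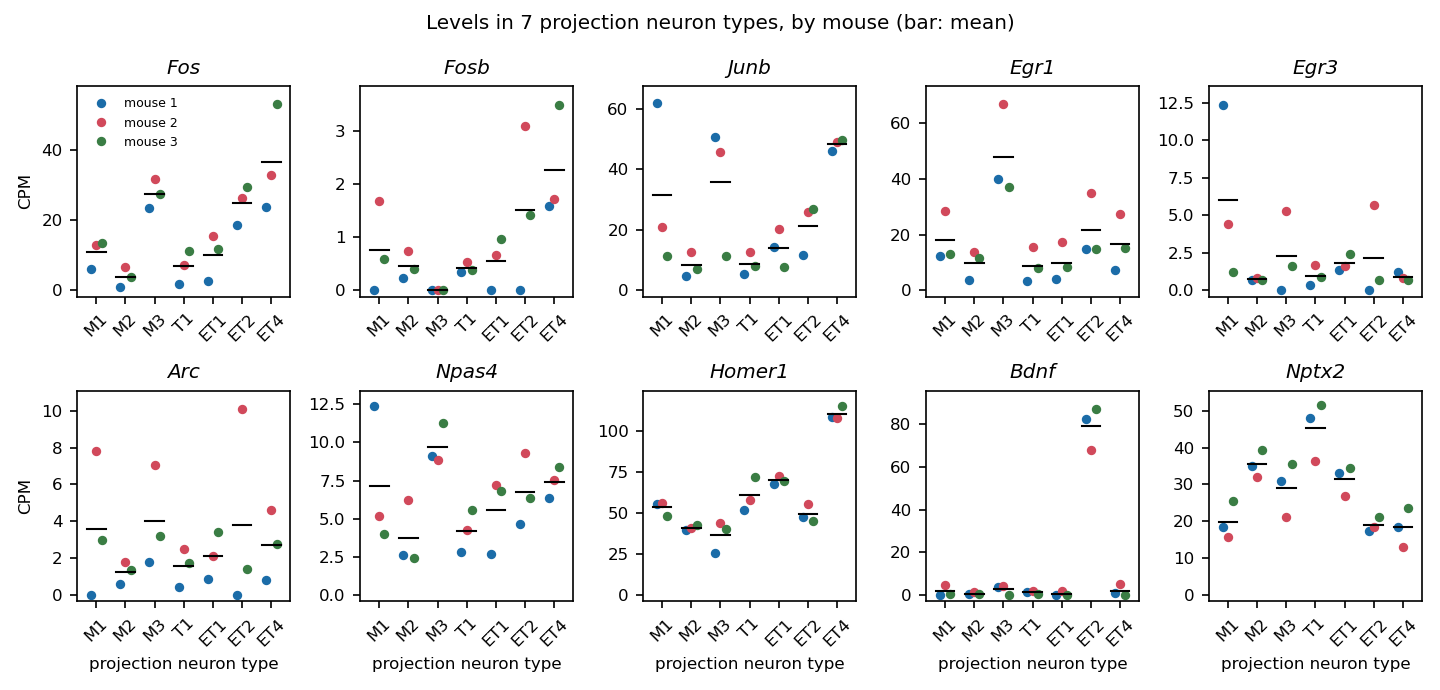
Levels of the 10 members (CPM) in the 7 projection neuron types, 1 point per mouse, with a bar at the mean. Bdnf stands out in ET2, and by mean level Fos, Junb and Homer1 are highest in ET4, Egr1 in M3 and Nptx2 in T1.

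Mitral-like types (M1, M2 and M3) were compared with tufted-like types (T1, ET1, ET2 and ET4). The test weighted each type equally, while the CPM given here are of all mitral or tufted nuclei pooled within a mouse. A log2 fold change of the test therefore need not match these CPM. Of 9 members tested, 0 were called by edgeR, 2 had an unadjusted p under 0.05 and DESeq2 also called 0, against 3.81% of all genes called lower and 5.53% higher in mitral types. Homer1 differed with an adjusted p of 8.26e-07 but a log2 fold change of -0.69 ± 0.09 (SE, n = 3), under the fold limit, at 39.0, 47.8 and 44.6 CPM in mitral and 64.2, 69.3 and 73.2 CPM in tufted nuclei. Bdnf had 0.549, 3.11 and 0.458 CPM in mitral and 6.07, 10.3 and 8.36 CPM in tufted nuclei, and differed by a log2 fold change of -1.20 ± 0.48 (edgeR adjusted p = 0.0597). With the mouse as a block this became -1.25 and was called (edgeR adjusted p = 0.0165). Bdnf was also called when the counts were summed per mouse over mitral and over tufted nuclei, as in these CPM. ET2 is the tufted type that carried Bdnf.

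Across all 21 clusters kept for the test, each of the 10 members differed between clusters by edgeR's F test, as did 86% of all genes, and among the 10 inhibitory clusters all 10 differed again, against 59.2% of all genes. The clusters had been made from the same counts, so that these counts describe the clusters rather than test them. Of 210 pairs of member and cluster, 44 were higher and 22 lower than the mean of the other clusters, or 20.95% and 10.48%, where over all genes 9.28% and 5.63% were. Higher calls were most numerous in 5 inhibitory clusters, with 9 of the 10 members in cluster 3, 8 in cluster 0, 7 in cluster 12 and 6 each in clusters 1 and 10. The other inhibitory clusters had few, with 1 each in clusters 6 and 8, 0 in cluster 7, and 0 higher and 1 lower each in clusters 15 and 17. Lower calls were most numerous in 3 projection clusters, with 7 in cluster 2, 6 in cluster 5 and 4 in cluster 4, each of which had Nptx2 as its 1 higher call. The other projection clusters had fewer lower calls, with 1 higher and 1 lower in cluster 13 and 2 higher (Bdnf and Nptx2) and 0 lower in cluster 14. Fewer calls do not show higher levels. In cluster 13, with 23 nuclei in mouse 1, Egr1, Egr3 and Arc had log2 fold changes of -1.09, -1.02 and -1.10 without a call. Their edgeR adjusted p were 0.0534, 0.0838 and 0.0681. In cluster 14, Egr1 and Arc stood at -1.03 and -1.24, also without a call.

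Cluster 0, the largest with 7681 nuclei, led among the inhibitory clusters for 8 members. Fos was at 27.3, 69.6 and 92.3 CPM there in mice 1, 2 and 3, Junb at 151, 156 and 190 CPM and Egr1 at 147, 209 and 245 CPM. Mouse 1 was the lowest for each. Cluster 12 was close to cluster 0 for Fos, with 47.0, 76.2 and 65.1 CPM, and cluster 3 for Egr1, with 174, 187 and 195 CPM. For Egr1 the clusters 0, 3, 12 and 10 did not overlap with cluster 1, the next in order.

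Bdnf and Nptx2 followed other clusters. Bdnf was highest in inhibitory cluster 3, at 86.2, 83.7 and 89.9 CPM, and next in projection cluster 14, at 82.2, 67.3 and 86.8 CPM, which holds the 471 ET2-like nuclei. Cluster 8 followed at 61.6, 49.9 and 54.9 CPM and cluster 1 at 25.6, 30.2 and 29.0 CPM, each without overlap to its neighbours. Cluster 0, which led for most members, had 17.7, 19.8 and 13.8 CPM of Bdnf. Nptx2 was highest in projection cluster 2, at 45.2, 32.9 and 49.7 CPM, and cluster 3 led the inhibitory clusters at 24.2, 16.3 and 17.6 CPM. Over the 10 members, 9 of 200 steps between neighbouring clusters in order were free of overlap. Most neighbours thus had overlapping ranges, a comparison that does not use the pairing by mouse. Bdnf, for example, was higher in cluster 3 than in cluster 14 in each mouse.

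**Figure D4:**
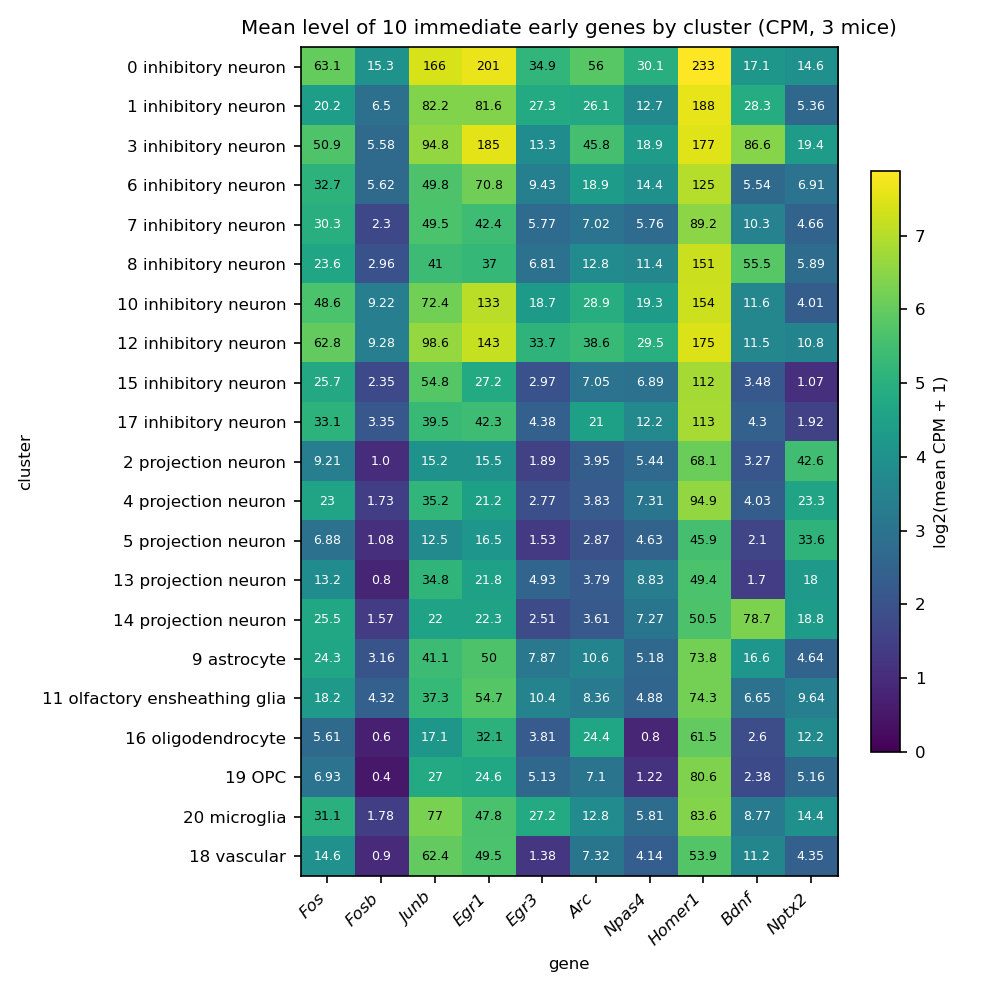
Mean level of each member (n = 3 mice) in the 21 named clusters; the number in a cell is the mean CPM and its colour log2(mean CPM + 1). Cluster 0 leads for most members, cluster 3, cluster 14 and cluster 8 for Bdnf, and the projection clusters 2 and 5 for Nptx2.

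Shares of nuclei were compared after thinning each nucleus to 2000 UMIs, which left out 97 nuclei below that depth, 28 of them inhibitory and 7 of the projection types. At least 1 member was detected in 43.8% ± 6.3 of nuclei (SD, n = 3 mice), with 38.4%, 50.7% and 42.3% in mice 1, 2 and 3, and in 77.7% without thinning. In inhibitory nuclei the share was 47.8%, 58.4% and 54.1%, and in projection nuclei 21.7%, 28.2% and 25.8%, with no overlap. Astrocyte-like nuclei had 15.6%, 33.4% and 21.5%, so that projection nuclei overlapped with a glial class and no expression is read from their share. Without thinning, the shares were 75.2%, 87.5% and 82.7% in inhibitory and 70.9%, 80.0% and 79.1% in projection nuclei, which are deeper. For Nptx2 the thinned share was 7.12%, 4.54% and 8.63% of projection nuclei, without overlap to 0.538%, 1.07% and 1.05% of astrocyte-like nuclei, while oligodendrocyte-like nuclei had 0%, 1.45% and 5.00%, the last of 20 nuclei. For Fos in ET4 it was 4.00%, 7.25% and 9.43%, against 2.69%, 3.86% and 2.62% of astrocyte-like nuclei, and microglia-like nuclei had 0%, 7.14% and 12.5%, of 17, 98 and 24 nuclei.

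Joint detection of 3 or more members was examined next. After thinning such nuclei made up 5.29%, 8.27% and 9.27% of inhibitory nuclei and 0.0698%, 0.549% and 0.276% of projection nuclei, with 1.61%, 1.86% and 2.09% in astrocyte-like nuclei. Cluster 0 had 8.08%, 12.9% and 17.0%, and cluster 3 had 9.75%, 10.0% and 13.4%. Within cluster 0, nuclei with a UMI of one member were compared with those without it. Of 90 ordered pairs of members, 56 had the second gene more often where the first was found in all 3 mice. Leaving out Bdnf and Nptx2, this held for 52 of 56, the exceptions being Egr3 with Npas4 and Egr3 with Homer1. Each pair is counted in both orders, and both orders have the same direction by construction. The number of separate pairs is therefore smaller than these counts. Pairs of other genes were not counted, so that no background share stands beside them and nothing particular to the members is read from them. In cluster 1 it held for 36 of 56 and in cluster 3 for 20 of 56. These clusters hold fewer nuclei (4754 and 2288), and the counts were not compared at equal numbers.

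Fosb gave the widest contrast in cluster 0. Of its Fosb-positive nuclei, 15, 130 and 37 in mice 1, 2 and 3, Fos was found in 46.7%, 40.8% and 45.9%, against 3.58%, 10.3% and 13.0% of the others. Junb was found in 60.0%, 51.5% and 62.2%, against 19.1%, 21.4% and 23.3%. Arc-positive nuclei likewise had Egr1 in 39.5%, 46.9% and 59.8%, against 20.8%, 27.3% and 24.1%. The nuclei of a mouse share 1 library, and these differences are descriptions without a test.

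**Figure D5:**
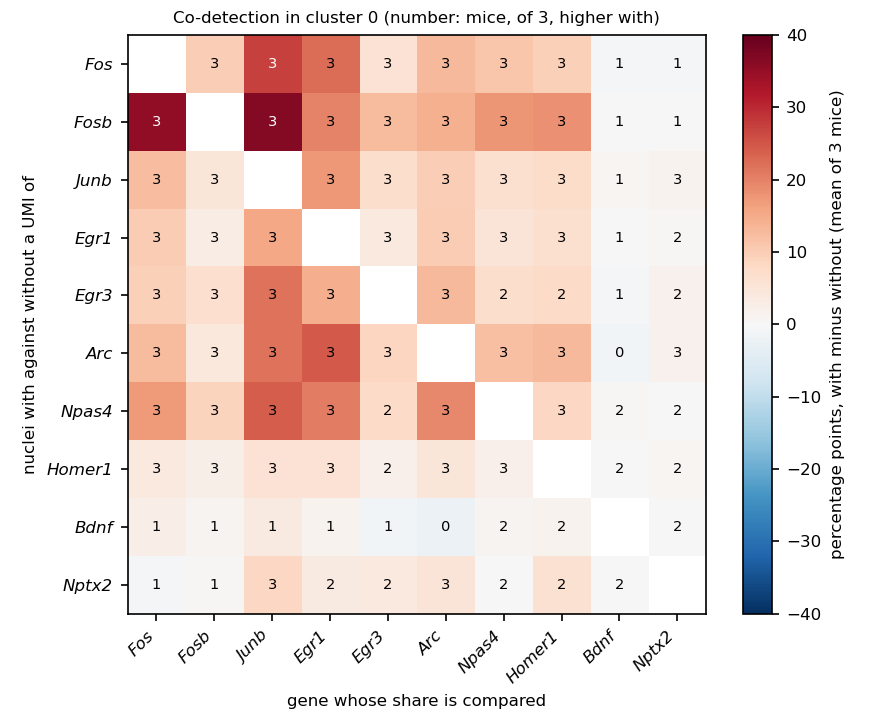
Difference in the share of cluster 0 nuclei with the column gene between nuclei with and without the row gene (percentage points, mean of 3 mice, thinned to 2000 UMIs); the number in a cell is how many of the 3 mice were higher with it. Fosb-positive nuclei show the largest rises for Fos (35.5 points) and Junb (36.7 points), and Bdnf and Nptx2 show little.

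The members were set beside the other genes of the same programme, from lists chosen with results of these data known. Of 19 other activity-induced transcription factors tested, 12 were lower and 1 higher in projection than in inhibitory nuclei by edgeR's test, with a median log2 fold change of -1.71. Nr4a2, an orphan nuclear receptor, changed by -4.01, Egr4 by -3.58 and Egr2 by -3.32, and Maff, a small Maf factor, rose by 1.13. Of 17 rapidly induced effectors, 9 were lower and 1 higher, with a median of -1.18. Ptgs2, the inducible cyclooxygenase, changed by -3.09, the MAP kinase phosphatases Dusp5 and Dusp6 by -3.04 and -2.37, and the kinase Pim1 rose by 1.05. These counts have the same direction as those of 9 of the 10 members. Over all genes, 13.9% were called lower and 15.4% higher in projection neurons.

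The later-induced and the partner genes were divided. Of 11 late response genes, 4 were higher and 4 lower, with a median of -0.28. Nrn1, the secreted neuritin, was higher by 3.38, Nptx1, the pentraxin that pairs with Nptx2, by 3.18 and Acan by 2.93, and Tac1, a neuropeptide precursor, was lower at -3.14. Of 17 partners of the members, 5 were higher and 6 lower, with a median of 0.10. Nptx1, which is on both lists, and the neurotrophin receptor Ngfr, at 1.44, were among the higher ones, and among the lower ones was Grm5, a metabotropic glutamate receptor that binds Homer proteins, at -4.15. Sort1, a sorting receptor for Bdnf, was at -2.53. Of 20 genes upstream of the members, such as calcium channels, kinases and CREB, 5 were lower and 0 higher, with a median of -0.73. Over all genes 13.9% were lower and 15.4% higher in this comparison. Camk4 was at -3.78, Cacna1c at -3.13 and Camk2a at -2.28.

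Of 15 heat shock and handling genes, 5 were lower, 1 was higher and 9 were not called in projection nuclei, with a median of -0.85, beside 13.9% lower and 15.4% higher over all genes. Hspa1a was at -1.88, and Socs3, the higher one, at 4.07, the largest change of the list. Of 13 mitochondrial transcripts, 11 were lower and 0 higher, with a median of -1.07. Their part in the lower levels of the members was not tested. Among the projection types, 12 of 15 other transcription factors passed edgeR's F test, as did 12 of 15 effectors, 10 of 11 late genes, 13 of 20 upstream genes, 16 of 17 partners, 14 of 15 handling genes and 13 of 13 mitochondrial transcripts, beside the 64.8% of all genes.

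The genes most like each member were found over 63 libraries of cluster and mouse by Pearson's r of log2(CPM + 1) among 10514 genes. The libraries share animals, depth and cell classes, so that r is a description. Fos was most like Npas4 (0.81), Prelid3a (0.81) and Nptn (0.76), Fosb like Egr4 (0.77), Egr1 (0.76) and Nr4a1 (0.76), and Junb like 6430571L13Rik (0.81), Ube2ql1 (0.80) and Rapgef2 (0.80). Egr1 was most like Syt10 (0.89), Kcnj4 (0.84) and Tenm3 (0.84), Egr3 like Abl2 (0.81) and Gng4 (0.78), and Npas4 like Grin1 (0.83), Nptn (0.83) and Shank2 (0.83). For Arc these were Chsy3 (0.77), Chrm1 (0.77) and Gad1os (0.77), and for Homer1 2700033N17Rik (0.85), Dlgap2 (0.83) and Gad1os (0.82). Bdnf was most like Sntg2 (0.83), Kcnb2 (0.72) and Lrrc75a (0.72), and Nptx2 like Rbm20 (0.72), Rasgef1c (0.68) and Eomes (0.67), a transcription factor of mitral and tufted cells. The r of Nptx2 with the other members ran from -0.25 to 0.11.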

How the data were processed

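The deposited counts are UMIs of each gene in each barcode. The authors obtained them with Cell Ranger on GRCm38 (version 3.0.2 in the headers) and did not normalise them. Whether intronic reads were counted is not given in the sources used here. A deposited table gives the retained nuclei with their cluster, and the deposited percent of mitochondrial UMIs, computed by the authors, entered no comparison. Its 6 other numeric columns were not used. Clusters come from the authors' Seurat run on the 3 mice together. Doublets were treated by the authors' gate for single nuclei, and no caller was run here.

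The members and the gene lists were chosen with earlier results of these data known. Clusters were named where at least 3 markers of a class reached 25% (subclusters 50%) of their highest level. UMIs were summed per mouse and group of at least 10 nuclei, filtered with filterByExpr, scaled by TMM and tested with edgeR 4.0.16 under R 4.3.3 (quasi-likelihood, no covariate). P-values were adjusted after Benjamini-Hochberg over every gene tested. Calls needed an adjusted p under 0.05 and a log2 fold change beyond 1 in either direction, and F tests the adjusted p alone. DESeq2 1.42.0 was an alternative. CPM use unscaled totals. The mouse pairs the libraries, since they come from the same animals: the r across genes of deviations from the group mean averaged 0.108 within and -0.0535 between mice, and was 0.212, 0.281 and 0.333 between projection and inhibitory libraries of mice 1, 2 and 3. The scripts were tested on simulated counts. Shares carry exact (Clopper-Pearson) 95% intervals in the underlying tables. The genes named are the 10 members, the 3 most like each, and of each list those with the largest changes. Some genes that this rule names are not reported here. Positions are from GENCODE M21.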

Additional observations from a re-analysis of the deposited data

Results flagged for a closer look

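The 10 members were also counted in the barcodes with under 1000 genes that the authors had called but not retained, which no comparison above uses. In 1872, 8721 and 2122 such barcodes of mice 1, 2 and 3 the members summed to 201, 891 and 491 CPM. The markers of inhibitory neurons in the same barcodes summed to 2639, 8106 and 3101 CPM, so that mouse 2 was highest in both. Egr1 alone stood there at 48.7, 320 and 117 CPM, against 59.3, 104.0 and 71.3 CPM in the retained nuclei. The cause was not tested.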

How the results depend on the processing

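The counts of members differing between projection and inhibitory neurons, among projection types, among inhibitory clusters and among all clusters stayed within 1.5 times of the reported ones under all alternatives run. The called pairs of member and type, 10 in all, ranged from 6 to 10 with 1 mouse left out and numbered 21 with all subclusters. Between mitral and tufted types 0 members were called, and 1, Bdnf, without the filter on low counts, among nuclei with at least 1500 genes, with the counts summed per mouse, with the replicate block, and in projection nuclei without interneuron UMIs, an alternative chosen after seeing the data. With the replicate block, in which the mouse pairs the libraries, 13 pairs of member and type and 7 members among types were called, and no call between projection and inhibitory neurons changed. Some of these pairs had no call without the block, and they are not named above. The share of nuclei with any member was 28.4%, 61.2% and 77.7% at 1000 UMIs, 4000 UMIs and without thinning, and 40.4% to 46.5% with 1 mouse left out. The mitral-tufted log2 fold change of Junb turned to 0.025 with DESeq2 and 0.27 after thinning, and ranged from -0.30 to 0.069 with 1 mouse left out. That of Npas4 ranged from -0.24 to 0.043 with 1 mouse left out. That of Nptx2 turned to -0.043 at 1500 genes and -0.20 when summed per mouse, and ranged from -0.054 to 0.15; the sign of all 3 turned without mouse 3. None of these was called, and the causes were not tested. Of 284 values for single genes in the comparisons of projection with inhibitory neurons, of mitral with tufted types and among types by the F test, 263 kept direction and side of the threshold, 1 lost its call, 13 gained one and 7 turned. Pairs of member and type that lost their call with 1 mouse left out or with the block are given with each gene above, and without interneuron UMIs Fos in T1, Bdnf in M2 and Nptx2 in T1 lost theirs. Shares of single members also moved with depth. Bdnf in ET2 had mean shares of 8.19%, 13.2% and 27.6% at 1000, 2000 and 4000 UMIs, and 47.3% without thinning. Arc in inhibitory nuclei had 3.15%, 5.76% and 10.2%, and 15.8% without thinning.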
